A study of Mus musculus with 3 samples.

Results

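The 10 genes described here are widely used as markers or regulators of axon growth and regeneration: Gap43, Basp1, Stmn2, Dclk1, Sox11, Stat3, Klf4, Klf6, Klf7 and Klf9. They were taken by symbol from the 32285 genes counted, and their levels were compared among 4 types of brain neurons. The samples were 3 single-nucleus libraries (10x Genomics droplets, UMI counts) of brain from uninjured C57BL/6 mice, labelled as biological replicates 1, 2 and 3. Neurons had been retrogradely labelled from the lumbar cord, dissected under fluorescence and sorted as nuclei, so the sort aims at neurons whose axons reach the lumbar cord. All nuclei come from this 1 condition, with no injured group, no sex or age given, and the number of mice in each library and the labelling agent not given in the sources used here. Nuclei that had 1000 or more genes detected, and no more than 5% of UMIs from mitochondrial genes, were typed in a fixed order by depth-scaled UMI counts (CPM) of gating genes, each gate with at least 2 UMIs: cortical (Tox at 300 or more), red nucleus (Ttc6, Chst9 and Rreb1 summing to 150 or more), hypothalamic (Sim1 at 150 or more, or Ros1 and Rfx2 summing to 150 or more) and hindbrain (Meis1 and Meis2 summing to 200 or more). None of the gating genes is among the 10.

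Axon growth needs proteins that build and steer the growth cone. Gap43 and Basp1 are acylated proteins of the growth cone membrane that bind phosphoinositides and act on the actin cytoskeleton. Stmn2 binds tubulin dimers and makes microtubules dynamic, and Dclk1 is a doublecortin-family kinase that binds microtubules. Upstream act transcription factors: Sox11 is a SoxC factor of immature and regenerating neurons, Stat3 carries signals of the gp130 cytokine receptors to the nucleus, and the Krüppel-like factors (Klf) bind GC-rich and CACCC elements. In work on retinal ganglion cells and corticospinal neurons of rodents, Klf6 and Klf7 promoted axon growth, while Klf4 and Klf9 suppressed it.

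Of 9027 nuclei within the limits, 4126 were cortical, 332 red nucleus, 149 hypothalamic and 2782 hindbrain, and 1638 passed no gate and are called untyped. Libraries held between 27435221 and 74287112 UMIs, and the 12 sums of 1 type in 1 library held between 367083 and 45768766 UMIs. The labels were checked against other markers. Bcl11b averaged 262 normalised CPM in cortical nuclei and at most 33.8 in any other type, Pou4f1 17.1 in red nucleus nuclei and at most 1.21 elsewhere, Hcrt 785 and Oxt 275 in hypothalamic nuclei and at most 75.9 and 10.6 elsewhere, and Lhx4 24.0 and Lhx3 18.0 in hindbrain nuclei and at most 6.50 and 1.66 elsewhere. Over whole lists, the 4 red nucleus markers (Pou4f1, Slc17a6, Lhx1 and Cpne4) summed to 218 to 259 CPM in red nucleus libraries but to 366 to 523 CPM in hypothalamic libraries, where Cpne4 was higher (282 normalised CPM, against 94.0 in red nucleus nuclei). The red nucleus label therefore rests on its gate and on Pou4f1 and Lhx1, and not on the list as a whole. The hindbrain markers Hoxb5 and Hoxb8 were at or near 0. Glial markers moved with the cortical label: the 5 astrocyte markers summed to 126 to 135 CPM in cortical libraries and 19.1 to 37.5 CPM in those of the other types, mostly through Slc1a2 (161 normalised CPM in cortical nuclei, while Aqp4 was 0.291 and Gfap 0.160). The 5 oligodendrocyte markers summed to 55.6 to 68.9 CPM in cortical and 19.1 to 55.9 CPM in other libraries, and the 5 microglial markers to 48.4 to 63.3 CPM in cortical and 81.7 to 138 CPM in other libraries, with C1qa near 0 in all 4 types. The part of these markers in the results was not tested. Within the limits, 6 barcodes were shared between libraries, and 1777 nuclei passed more than 1 gate and kept the first. Most of these were cortical: only 530 of 918, 827 of 1415 and 1050 of 1793 cortical nuclei in replicates 1, 2 and 3 passed no other gate. In red nucleus nuclei these were 110 of 127, 75 of 86 and 100 of 119. Near the gates, meaning within 1.5 times the threshold, lay 682 cortical, 57 red nucleus, 22 hypothalamic and 253 hindbrain nuclei on the inside.

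Levels below are normalised CPM, that is CPM after TMM scaling of the 12 sums, as mean ± SD over 3 libraries unless each library is given. Differences are log2 fold changes ± SE of a type over the equally weighted mean of the other 3, from edgeR's quasi-likelihood test with the library as a block, and adjusted p-values are Benjamini-Hochberg over all 16185 genes tested. A gene is written as higher or lower at an adjusted p under 0.05, and as called where the change was also at least 2-fold. Where libraries of the types are said to overlap or not, the share of all genes that do so is not given. Of the 10 genes, 9 passed the filter on low counts, and Klf4 did not. In cortical nuclei 3 of the 9 were called, with Dclk1 and Klf9 higher and Sox11 lower, against a background of 22.5% of all tested genes (9.22% higher and 13.3% lower). Only Sox11 was called in red nucleus nuclei (background 7.13%, 4.78% higher and 2.35% lower) and in hypothalamic nuclei (background 7.96%, 4.52% higher and 3.44% lower), higher in both. In hindbrain nuclei 0 of 9 were called (background 4.82%, 3.54% higher and 1.28% lower) with edgeR. DESeq2 also called 0, and 6 reached an unadjusted p under 0.05. At an adjusted p under 0.05 without a fold limit, the counts were 7 of 9 in cortical nuclei (background 56.9%), 4 in red nucleus nuclei (19.3%), 4 in hypothalamic nuclei (17.8%) and 3 in hindbrain nuclei (17.7%). At this threshold most of all genes tested differed between cortical nuclei and the rest, so little is read from the cortical count. Between pairs of types, Dclk1 and Sox11 were each called in the 3 pairs with cortical nuclei, Klf9 in 2 of these and Gap43 in 1 pair without them. The backgrounds were 21.6% for cortical over red nucleus, 21.9% over hypothalamic and 21.3% over hindbrain nuclei, and 6.83% for red nucleus over hypothalamic, 4.23% for red nucleus over hindbrain and 4.09% for hypothalamic over hindbrain nuclei. At an adjusted p under 0.05 and any size, they were 46.3, 37.2, 58.2, 12.8, 11.5 and 8.58% in the same order of pairs.

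**Figure D1:**
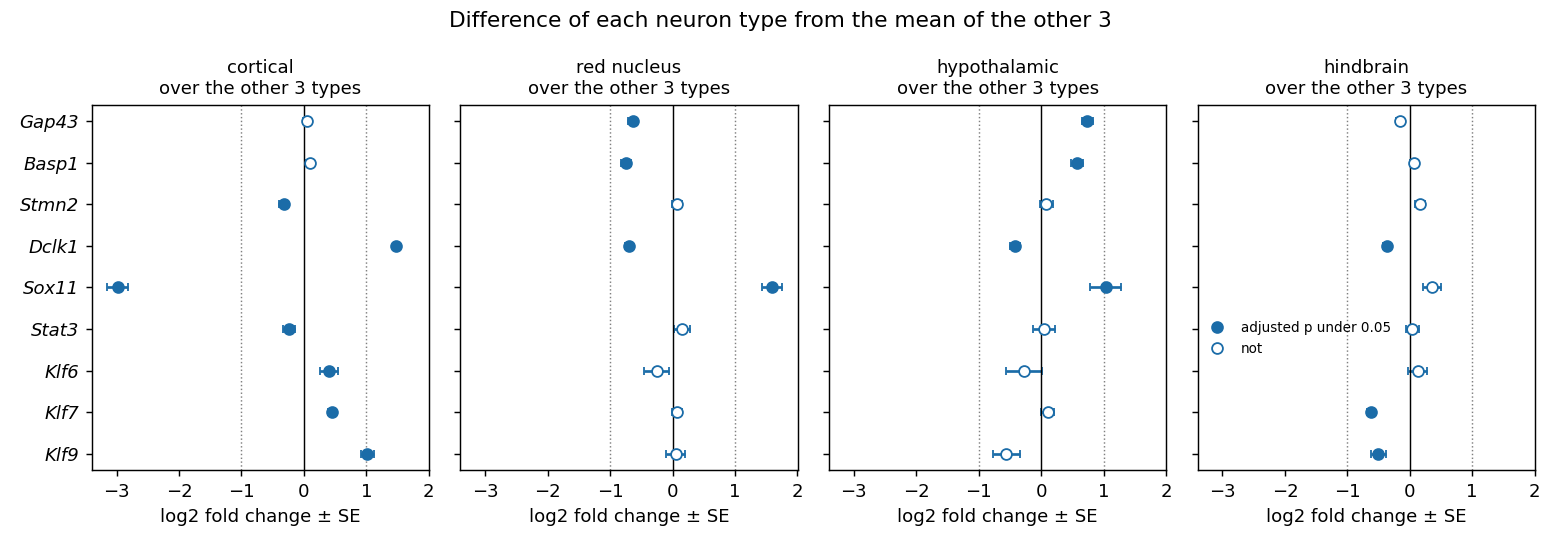
Log2 fold change (x axis, ± SE) of the 9 tested genes in each neuron type over the mean of the other 3 types, 1 panel per type. Filled points passed an adjusted p under 0.05 and dotted lines mark a 2-fold change. Sox11 spans the widest range, at -2.98 in cortical nuclei and 1.59 in red nucleus nuclei.

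The scaling affects these values. Without TMM, on total UMIs alone, the median log2 fold change of all tested genes was -0.47 in cortical, 0.06 in red nucleus, 0.24 in hypothalamic and 0.15 in hindbrain nuclei, against -0.03, 0.03, -0.04 and 0.03 with TMM. Of all genes called in cortical nuclei, 41.0% were higher with TMM and 18.5% without. The corresponding shares were 56.8% and 80.9% in hypothalamic nuclei and 73.5% and 83.0% in hindbrain nuclei. Small cortical differences therefore depend on the scale, and those that turn are given below.

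Gap43 and Basp1 had the same order of types, with hypothalamic nuclei at the top and red nucleus nuclei at the bottom. Gap43 (chr16:42248442-42340651, minus strand, GRCm38) stood at 264, 296 and 259 normalised CPM in hypothalamic nuclei of replicates 1, 2 and 3. The cortical values were 189, 184 and 204, the hindbrain values 173, 163 and 180.3, and the red nucleus values 136, 129.6 and 137. The hypothalamic libraries lay above, and the red nucleus libraries below, every library of the other types. Gap43 was higher in hypothalamic nuclei, at 273 ± 20.1 against 166 over the other 3 types (log2 fold change 0.74 ± 0.08, adjusted p = 2.40e-07), and lower in red nucleus nuclei, at 134 ± 4.09 against 213 (-0.64 ± 0.07, adjusted p = 5.72e-07). Red nucleus against hypothalamic nuclei gave -1.03 (adjusted p = 5.32e-08), a call against a background of 6.83% of genes that falls below 2-fold under 3 of 16 alternatives, namely without replicate 2 (-0.93), with gates doubled (-0.90) and in the Sim1 gate alone (-0.92). Between cortical and hindbrain nuclei the difference was 0.16 ± 0.07 (adjusted p = 0.0505), and it was -0.25 on total UMIs alone.

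Basp1 (chr15:25363277-25413764, minus strand) stood at 163, 212 and 171 normalised CPM in hypothalamic nuclei, 118 to 161 in cortical nuclei and 122 to 149.7 in hindbrain nuclei. The red nucleus values were 87.5, 97.4 and 91.9, below every library of the other types. In plain CPM, Basp1 of cortical replicate 1 (92.8) lay below red nucleus replicates 2 (100.7) and 3 (96.8). It was higher in hypothalamic nuclei, at 182 ± 26.2 against 125 (0.58 ± 0.09, adjusted p = 5.68e-05), and lower in red nucleus nuclei, at 92.2 ± 4.96 against 155 (-0.74 ± 0.08, adjusted p = 2.54e-07). Cortical and hindbrain nuclei, its neighbours in the middle of the order, differed by 0.03 ± 0.07 (adjusted p = 0.719). Red nucleus against hypothalamic nuclei gave -0.99 ± 0.11 for Basp1 (adjusted p = 7.70e-07), just short of 2-fold. This pair was called under 7 of 16 alternatives, so only the 2-fold limit sets it apart from Gap43. Within every one of the 4 types Basp1 was lowest in replicate 1 and highest in replicate 2. For cortical nuclei against the other 3 types neither gene passed with TMM (Gap43 0.05, adjusted p = 0.463, and Basp1 0.10, adjusted p = 0.168), while on total UMIs alone both were lower (-0.38 and -0.33). Across the 12 sums the log2 levels of Gap43 and Basp1 had a Pearson r of 0.89, a description over points that share 3 libraries.

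**Figure D2:**
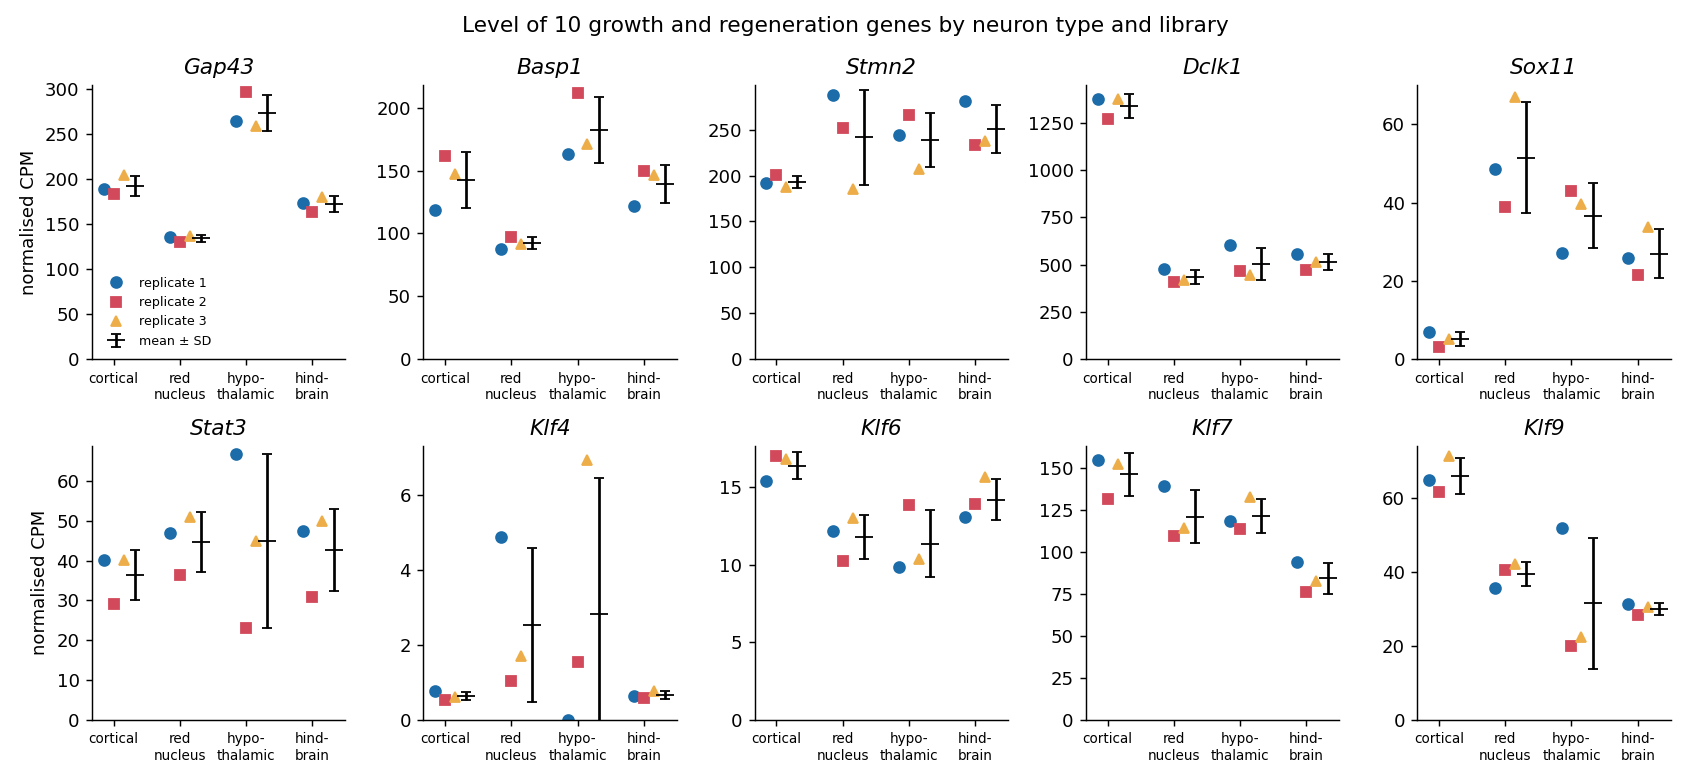
Normalised CPM (y axis, linear, from 0) of the 10 genes in each neuron type, with 1 point per library and the mean ± SD beside them. Dclk1 is high in cortical nuclei (1269 to 1376) and Sox11 low there (3.20 to 6.93) in all 3 libraries.

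The microtubule genes parted: Dclk1 differed strongly between types and Stmn2 less. Dclk1 (chr3:55242364-55539068, plus strand) stood at 1375, 1269 and 1376 normalised CPM in cortical nuclei. Its values were 408 to 478 in red nucleus, 446 to 603 in hypothalamic and 471 to 558 in hindbrain nuclei. The cortical libraries lay above every other library, and the 3 other types overlapped. Dclk1 was higher in cortical nuclei, at 1340.0 ± 61.2 against 484 (1.48 ± 0.06, adjusted p = 3.46e-16). This was called under all 16 alternatives tried, 1 of which (a limit of 1% mitochondrial UMIs) left the typed nuclei unchanged. The remaining types were each lower than the mean of their other 3, which includes cortical nuclei, with log2 fold changes of -0.69 in red nucleus, -0.42 in hypothalamic and -0.37 in hindbrain nuclei. On total UMIs alone the hypothalamic value was -0.14 (adjusted p = 0.183). Among themselves, hypothalamic over hindbrain nuclei differed by -0.04 ± 0.09 (adjusted p = 0.877) and red nucleus over hypothalamic nuclei by -0.21 ± 0.09 (adjusted p = 0.145). Dclk1 was lower in red nucleus than in hindbrain nuclei (-0.24 ± 0.08, adjusted p = 0.0431), with an adjusted p of up to 0.445 under the alternatives. The gene overlaps Gm42609 and Gm21954 on the opposite strand, which share exonic sequence with it and were counted too, and whether counting used strand is not given in the sources used here.

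Stmn2 (chr3:8509360-8561606, plus strand) averaged 193 ± 6.55 normalised CPM in cortical, 242 ± 51.8 in red nucleus, 239 ± 29.5 in hypothalamic and 251 ± 26.2 in hindbrain nuclei. Red nucleus libraries ran between 185 and 287 and covered the range of all the other types. In plain CPM the cortical libraries (149 to 163) lay below every red nucleus library (195 to 272). Stmn2 was lower in cortical nuclei (193 against 244, -0.32 ± 0.08, adjusted p = 0.000958), and without replicate 1 this was -0.19 (adjusted p = 0.0692). Over the 16 alternatives the cortical value ranged from -0.76 to -0.19. The other types did not pass the test, with log2 fold changes between 0.07 and 0.17. Hindbrain, red nucleus and hypothalamic nuclei, in this order of levels, overlapped.

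Sox11 had the widest range of the 9 tested genes. The gene (chr12:27334264-27342574, minus strand) has a single exon. It stood at 6.93, 3.20 and 5.19 normalised CPM in cortical nuclei and at 48.6, 38.9 and 66.9 in red nucleus nuclei. Hypothalamic nuclei had 27.2, 43.0 and 39.8, and hindbrain nuclei 25.9, 21.4 and 33.7. The cortical libraries lay below every other library, while each of the other types overlapped its neighbour. Sox11 was lower in cortical nuclei, at 5.10 ± 1.87 against 38.4 over the other 3 types (-2.98 ± 0.17, adjusted p = 2.98e-12), and was called under all 16 alternatives. It was higher in red nucleus nuclei, at 51.5 ± 14.2 against 22.9 (1.59 ± 0.17, adjusted p = 2.61e-07), again called under all 16, and it was higher in red nucleus than in hindbrain nuclei (0.93, adjusted p = 0.000788, and 0.0679 without the library block). The red nucleus and hypothalamic fold changes are over log-scale means that include the low cortical level, so they exceed the ratios of the mean levels given. In hypothalamic nuclei Sox11 was 36.7 ± 8.37 against 27.9 (1.03 ± 0.25, adjusted p = 0.00558), from 62 UMIs in all. That call was lost under 6 of 16 alternatives, among them without replicate 2 (0.64, adjusted p = 0.182) and without the library block (0.98, adjusted p = 0.0412). Red nucleus and hypothalamic nuclei differed by 0.42 ± 0.26 (adjusted p = 0.347), and hypothalamic and hindbrain nuclei by 0.51 ± 0.25 (adjusted p = 0.275).

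RefSeq promoters (GRCm38.p6) were matched for 8 of the 10 genes. The 250 bases before the annotated start are shown for Sox11, for both starts of Dclk1 and for Klf9, the 3 genes called in cortical nuclei, because Klf factors are known to bind the motifs marked. Capitals mark the GC box (GGGCGG, or CCGCCC on the other strand) and the CACCC box (CACCC, or GGGTG on the other strand), and no matches overlap in these windows. The coordinates are chr12:27342719-27342968 (minus strand) for Sox11, chr3:55242114-55242363 and chr3:55461478-55461727 (plus strand) for the first and second start of Dclk1, and chr19:23140976-23141225 (plus strand) for Klf9.
Sox11: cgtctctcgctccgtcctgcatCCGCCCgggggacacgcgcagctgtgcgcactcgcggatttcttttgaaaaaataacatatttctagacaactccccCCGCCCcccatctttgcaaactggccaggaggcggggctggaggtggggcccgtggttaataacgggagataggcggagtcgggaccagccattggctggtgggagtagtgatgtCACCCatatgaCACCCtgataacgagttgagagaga
Dclk1 first start: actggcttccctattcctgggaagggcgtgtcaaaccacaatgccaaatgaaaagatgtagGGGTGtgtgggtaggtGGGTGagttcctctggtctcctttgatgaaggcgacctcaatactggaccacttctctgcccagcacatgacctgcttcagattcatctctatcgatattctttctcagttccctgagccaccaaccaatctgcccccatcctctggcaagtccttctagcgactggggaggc
Dclk1 second start: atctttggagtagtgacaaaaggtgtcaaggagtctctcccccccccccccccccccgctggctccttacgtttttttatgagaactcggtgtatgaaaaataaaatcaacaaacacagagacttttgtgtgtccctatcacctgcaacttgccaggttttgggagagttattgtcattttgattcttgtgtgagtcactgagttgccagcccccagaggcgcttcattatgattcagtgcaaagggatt
Klf9: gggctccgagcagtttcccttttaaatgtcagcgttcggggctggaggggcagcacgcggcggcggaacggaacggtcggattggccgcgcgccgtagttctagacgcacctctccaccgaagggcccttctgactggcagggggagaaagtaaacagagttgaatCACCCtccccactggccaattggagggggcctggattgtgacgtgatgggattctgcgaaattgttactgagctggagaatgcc
Sox11 holds 2 GC boxes and 2 CACCC boxes, the first start of Dclk1 holds 2 CACCC boxes and no GC box, its second start holds neither, and Klf9 holds 1 CACCC box and no GC box. Of 32817 RefSeq mouse promoter windows of 250 bases, 32.7% held a GC box and 52.0% a CACCC box. A match describes the letters only. The counts per gene do not tell the 2 starts of Dclk1 apart.

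Stat3 differed least. The gene (chr11:100885098-100939540, minus strand) averaged 36.5 ± 6.29 normalised CPM in cortical, 44.8 ± 7.57 in red nucleus, 44.9 ± 21.8 in hypothalamic and 42.8 ± 10.3 in hindbrain nuclei. The 4 types overlapped, and 0 of 6 pairs of types passed the test in the main edgeR fit or with DESeq2. Under some alternatives Stat3 was lower in cortical than in hindbrain (to -0.63), red nucleus (to -0.65) and hypothalamic nuclei (to -0.76). The lowest adjusted p-values of these pairs were 6.54e-06, 0.00027 and 0.00351. Against the other 3 types, the cortical value ranged from -0.68 to -0.10 over the 16 alternatives. Stat3 was lower in cortical nuclei against the other 3 types (36.5 against 44.2, -0.24 ± 0.10, adjusted p = 0.0391), but not without replicate 1 (-0.10, adjusted p = 0.447), without replicate 3 (-0.22, adjusted p = 0.206) or without the library block (-0.25, adjusted p = 0.343). Within every one of the 4 types it was lowest in replicate 2. Stat3 shares exonic sequence with Stat5a on the opposite strand, so reads of the 2 cannot be told apart if counting ignored strand.

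Around Stat3, 14 of 16 genes of the cytokine pathway were tested (receptors Il6st, Lifr, Cntfr, Osmr and Il6ra, the Jak kinases, other Stat factors, and the Socs and Pias inhibitors). In cortical nuclei 0 were called higher and 5 lower, with a list median of -0.01 against -0.03 over all genes. In hypothalamic nuclei 3 were higher and 0 lower (median 0.15 against -0.04), and in red nucleus and hindbrain nuclei 0 of 14 were called with edgeR or DESeq2 (medians -0.06 and -0.22, both against 0.03), with 5 and 6 at an unadjusted p under 0.05. The shares of all tested genes called higher and lower were 9.22% and 13.3% in cortical, and 4.78% and 2.35% in red nucleus nuclei. They were 4.52% and 3.44% in hypothalamic, and 3.54% and 1.28% in hindbrain nuclei. Without replicate 3 the cortical count was 3 and the hypothalamic count 1. Stat5b, the Stat factor downstream of growth hormone and prolactin receptors, stood at 18.3 ± 2.17 normalised CPM in cortical nuclei against 99.1 in the others (-2.23 ± 0.11, adjusted p = 1.95e-12), and at 173 ± 49.0 in hypothalamic nuclei against 47.6 (2.05 ± 0.15, adjusted p = 3.28e-09). Socs2, an inhibitor of that signalling, was 70.5 ± 57.0 in hypothalamic nuclei against 23.4 (1.48 ± 0.36, adjusted p = 0.0205), a call lost under 4 of 16 alternatives. These were without replicate 1 (0.74, adjusted p = 0.0453), without replicate 3 (1.72, adjusted p = 0.0743), without nuclei that passed more than 1 gate (0.72, adjusted p = 0.0467) and with gates doubled (0.48, adjusted p = 0.349).

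The Klf factors reported to promote growth, Klf6 and Klf7, differed little to moderately. Klf7 (chr1:64029447-64122282, minus strand) stood at 76.2 to 94.5 normalised CPM in hindbrain nuclei, below every library of the other types. It was lower there, at 84.5 ± 9.25 against 130 over the other 3 types (-0.62 ± 0.07, adjusted p = 3.74e-07), and lower in 3 of 3 libraries. Cortical nuclei had 147 ± 12.8 against 109 (0.45 ± 0.06, adjusted p = 2.34e-06), but 0.01 (adjusted p = 0.87) on total UMIs alone. Red nucleus nuclei (121 ± 15.9) and hypothalamic nuclei (122 ± 10.1) differed by -0.03 ± 0.12 (adjusted p = 0.916). On total UMIs alone, cortical nuclei turned from above to below red nucleus nuclei (0.28 with TMM, -0.06 without) and hypothalamic nuclei (0.25 with, -0.28 without). Klf7 shares exonic sequence with the antisense gene Gm13748.

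Klf6 (chr13:5861482-5870394, plus strand) averaged 16.4 ± 0.88 normalised CPM in cortical, 11.8 ± 1.43 in red nucleus, 11.4 ± 2.15 in hypothalamic and 14.2 ± 1.32 in hindbrain nuclei, the hypothalamic level resting on 19 UMIs. It was higher in cortical nuclei (0.40 ± 0.14, adjusted p = 0.0168), but -0.03 on total UMIs alone, and its adjusted p was 0.085 without replicate 2 and 0.082 without replicate 3. The other 3 types did not pass.

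Of the Klf factors reported to suppress growth, Klf9 gave 6556 UMIs over the 12 sums, 47 of them in hypothalamic nuclei. Klf4 gave 88 UMIs. Klf9 (chr19:23141226-23168134, plus strand), a target of thyroid and glucocorticoid hormone receptors, stood at 64.9, 61.4 and 71.2 normalised CPM in cortical nuclei. It was 35.6 to 42.0 in red nucleus, 28.3 to 31.2 in hindbrain, and 51.9, 20.0 and 22.5 in hypothalamic nuclei. In normalised CPM the cortical libraries lay above every other library. Hypothalamic replicate 1 lay above every cortical library in plain CPM, at 57.2 against at most 56.6 (cortical replicate 3). Klf9 was higher in cortical nuclei, at 65.8 ± 4.95 against 33.6 (1.02 ± 0.10, adjusted p = 1.15e-08), just past the 2-fold limit. It stayed above at an adjusted p under 0.05 under all 16 alternatives (lowest value 0.58), and past 2-fold under 11 of them. It fell short of 2-fold on total UMIs alone, with DESeq2, with untyped nuclei as another class, and without replicate 2 (0.99) or replicate 3 (0.92). It was lower in hindbrain nuclei, at 30.0 ± 1.53 against 45.5 (-0.50 ± 0.12, adjusted p = 0.00414), with an adjusted p of 0.0756 without the library block. In hypothalamic nuclei the value was -0.56 ± 0.22 (adjusted p = 0.0838). Replicate 1 stood apart there, and without it Klf9 was called lower (-1.06, adjusted p = 0.00397).

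Klf4 (chr4:55527143-55532466, minus strand) gave 47 UMIs in 4126 cortical, 11 in 332 red nucleus, 5 in 149 hypothalamic and 25 in 2782 hindbrain nuclei, never more than 2 in 1 nucleus. Its levels were 0.63 ± 0.11, 2.53 ± 2.05, 2.82 ± 3.63 and 0.66 ± 0.10 normalised CPM in these 4 types, and hypothalamic replicate 1 had 0 UMIs, where the 3 counts that a 0 allows would be 8.17 CPM. Without the filter on low counts, cortical nuclei gave -1.32 ± 0.50 (adjusted p = 0.0249) and the other types did not pass.

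Of the 13 other Klf genes listed, 10 were tested. Shares of all genes called higher and lower were 9.22 and 13.3% (cortical), 4.78 and 2.35% (red nucleus), 4.52 and 3.44% (hypothalamic), and 3.54 and 1.28% (hindbrain). Cortical nuclei had 2 called higher and 1 lower (median 0.19 against -0.03 over all genes), red nucleus nuclei 0 and 1 (0.19 against 0.03), hypothalamic nuclei 1 and 1 (0.04 against -0.04) and hindbrain nuclei 0 and 0 (-0.22 against 0.03, 5 at an unadjusted p under 0.05, 0 called by DESeq2). Klf10, induced by TGF-beta, was 32.7 ± 10.2 normalised CPM in cortical nuclei against 10.9 (1.87 ± 0.15, adjusted p = 1.12e-10), and 4.39 ± 1.16 in red nucleus nuclei against 20.4 (-2.13 ± 0.29, adjusted p = 4.59e-06). In hypothalamic nuclei Klf12 was lower, at 98.4 ± 6.18 against 243 (-1.29 ± 0.11, adjusted p = 3.75e-09), and Klf8 higher, at 59.7 ± 11 against 27.9 (1.08 ± 0.18, adjusted p = 7.39e-05). The cortical count of 3 was 1 without replicate 2, 1 without replicate 3 and 1 without the library block, and Klf8 fell short of 2-fold without replicate 1 (0.95) and in nuclei of the Sim1 gate alone (0.25).

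The share of nuclei with a UMI was compared after each nucleus was thinned to 4000 UMIs, because cortical nuclei were deeper (median 19359.5 UMIs) than red nucleus (11929), hypothalamic (8010.0) and hindbrain nuclei (10432). Thinning left out 97, 9, 11 and 175 shallower nuclei of these types. Sox11 was seen in 1.74% of cortical nuclei (exact 95% binomial interval 1.36 to 2.19%), 15.5% of red nucleus (11.7 to 19.9%), 13.8% of hypothalamic (8.50 to 20.7%) and 10.9% of hindbrain nuclei (9.76 to 12.2%). Dclk1 was seen in 96.1% of cortical nuclei, and in 79.6% of red nucleus, 83.3% of hypothalamic and 85.8% of hindbrain nuclei. Gap43 was seen in 66.7% of hypothalamic nuclei and in 40.9 to 52.1% of the nuclei of the other types. Klf9 was seen in 18.1% of cortical, 14.9% of red nucleus, 10.9% of hypothalamic and 11.4% of hindbrain nuclei. Before thinning, Sox11 was seen in 7.05% of cortical, 41.9% of red nucleus, 28.9% of hypothalamic and 25.9% of hindbrain nuclei, and Klf9 in 58.7%, 40.4%, 22.1% and 27.8%. As a gauge of free RNA, Hcrt, a peptide of lateral hypothalamic neurons, was seen in 19.4% of thinned cortical and 22.6% of thinned hindbrain nuclei, which should lack it (55.6% and 47.2% before thinning). Hcrt averaged 70.1 normalised CPM in cortical nuclei. The gauge differed between libraries, at 18.5, 31.8 and 10.5% of cortical and 20.3, 37.9 and 13.7% of hindbrain nuclei in replicates 1, 2 and 3. Pooled shares of Sox11, Stat3, Klf4, Klf6 and Klf9 lay below it, but in replicate 3 Klf9 (19.2%) and Stat3 (11.8%) in cortical nuclei and Stat3 (20.7%) in hindbrain nuclei lay above it. In barcodes outside the limits of replicate 2, Hcrt was at 1035 CPM, Dclk1, the highest of the 10 genes, at 594 and Sox11 at 8.83. Hcrt therefore does not measure the free RNA of these genes. Sox11 there lay above its plain CPM in cortical nuclei of that library (2.60). The intervals of Sox11 in cortical nuclei did not overlap those of any other type. Shares and intervals cover counting error only.

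**Figure D3:**
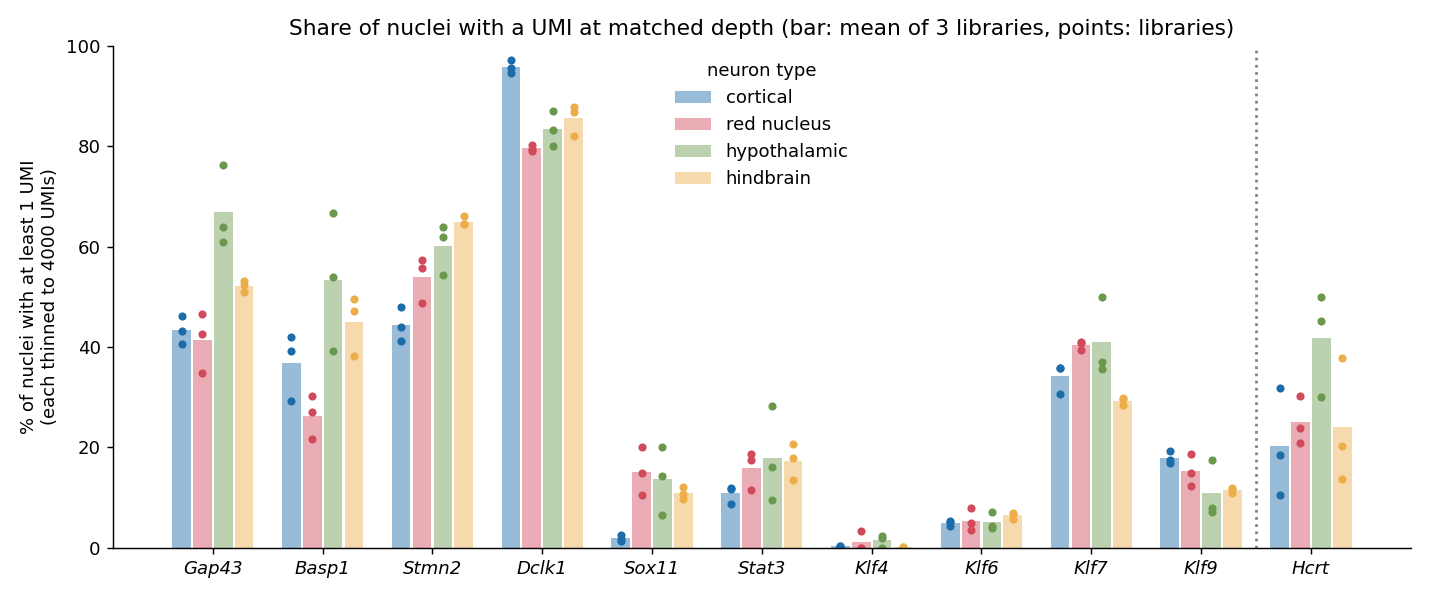
Percent of nuclei with at least 1 UMI (y axis, 0 to 100) of each gene after thinning every nucleus to 4000 UMIs. Bars are means of 3 libraries, points the libraries, and colours the 4 neuron types. Sox11 is lowest in cortical nuclei (1.33 to 2.48%), Dclk1 highest there (94.7 to 97.1%), and Hcrt at the right gauges free RNA.

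All 22 other growth cone and microtubule genes were tested. Cortical nuclei had 0 called higher and 5 lower, beside 9.22% and 13.3% of all genes, with a median of -0.40 against -0.03 over all genes. On total UMIs alone the count was 9 lower, where the median of all genes was -0.47. Hypothalamic nuclei had 2 higher and 0 lower (0.24 against -0.04), beside 4.52% and 3.44% of all genes. Red nucleus and hindbrain nuclei had 0 called with edgeR (-0.02 and 0.11, both against 0.03), with 9 and 13 at an unadjusted p under 0.05. The shares of all genes called there in either direction were 7.13% and 4.82%. DESeq2 called 0 and 1 there. Without replicate 3 the hypothalamic counts were 1 higher and 1 lower. Dpysl5, a collapsin response mediator, was 25.0 ± 0.76 normalised CPM in cortical nuclei against 87.6 (-1.75 ± 0.10, adjusted p = 1.71e-13), and 109.7 ± 5.64 in hypothalamic nuclei against 59.4 (1.07 ± 0.14, adjusted p = 3.81e-06). Its relative Dpysl3 was 38.0 ± 0.15 in cortical nuclei against 126 (-1.72 ± 0.09, adjusted p = 2.54e-12). Marcks, a membrane and actin regulator related in mechanism to Gap43, was 8.72 ± 0.96 in cortical nuclei against 20.4 (-1.20 ± 0.14, adjusted p = 1.54e-07).

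Of 16 genes induced by nerve injury in other neurons, 10 were tested in these uninjured nuclei. Shares of all genes called lower were 13.3% in cortical nuclei. The shares called higher were 9.22% in cortical, 4.78% in red nucleus, 4.52% in hypothalamic and 3.54% in hindbrain nuclei. Cortical nuclei had 0 called higher and 3 lower (median -0.85 against -0.03; 1 lower without replicate 3, and 5 on total UMIs alone), red nucleus nuclei 1 higher (0.22 against 0.03; 0 without replicate 1, replicate 3 or the library block), hypothalamic nuclei 1 higher (0.43 against -0.04; 2 without replicate 2) and hindbrain nuclei 1 higher (0.09 against 0.03; 0 without replicate 2). Ecel1, a neuronal endopeptidase, was 20.1 ± 6.62 normalised CPM in hypothalamic nuclei against 6.70 (2.00 ± 0.36, adjusted p = 0.000225).

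Of 10 listed brakes on growth, 9 were tested. Over all genes, the shares called in either direction were 22.5% in cortical, 7.13% in red nucleus, 7.96% in hypothalamic and 4.82% in hindbrain nuclei. Cortical nuclei had 1 called higher and 0 lower (median 0.18 against -0.03), red nucleus nuclei 0 and 1 (-0.09 against 0.03), hypothalamic nuclei 0 and 0 (-0.21 against -0.04) and hindbrain nuclei 0 and 0 (0.09 against 0.03). DESeq2 also called 0 in hypothalamic and hindbrain nuclei, where 4 and 4 reached an unadjusted p under 0.05. On total UMIs alone cortical nuclei had 1 higher and 2 lower. The cortical gene was Nr3c1, the glucocorticoid receptor, at 118 ± 7.31 normalised CPM against 32.8 (1.90 ± 0.17, adjusted p = 7.22e-06). It was 26.2 ± 15.6 in red nucleus nuclei against 63.5 (-1.0 ± 0.29, adjusted p = 0.0369), a call lost under 8 of 16 alternatives. Among these were without replicate 1 (-0.92, adjusted p = 0.238), without replicate 2 (-0.62, adjusted p = 0.124), without the library block (-0.99), with gates doubled (-0.83, adjusted p = 0.13) and on total UMIs alone (-0.97, adjusted p = 0.0525). The others were RLE size factors (-0.99), nuclei that passed more than 1 gate left out (-1.09, adjusted p = 0.0636) and the Sim1 gate alone (-0.82, adjusted p = 0.153). Without the block 1 of the 9 was called in hypothalamic nuclei.

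**Figure D4:**
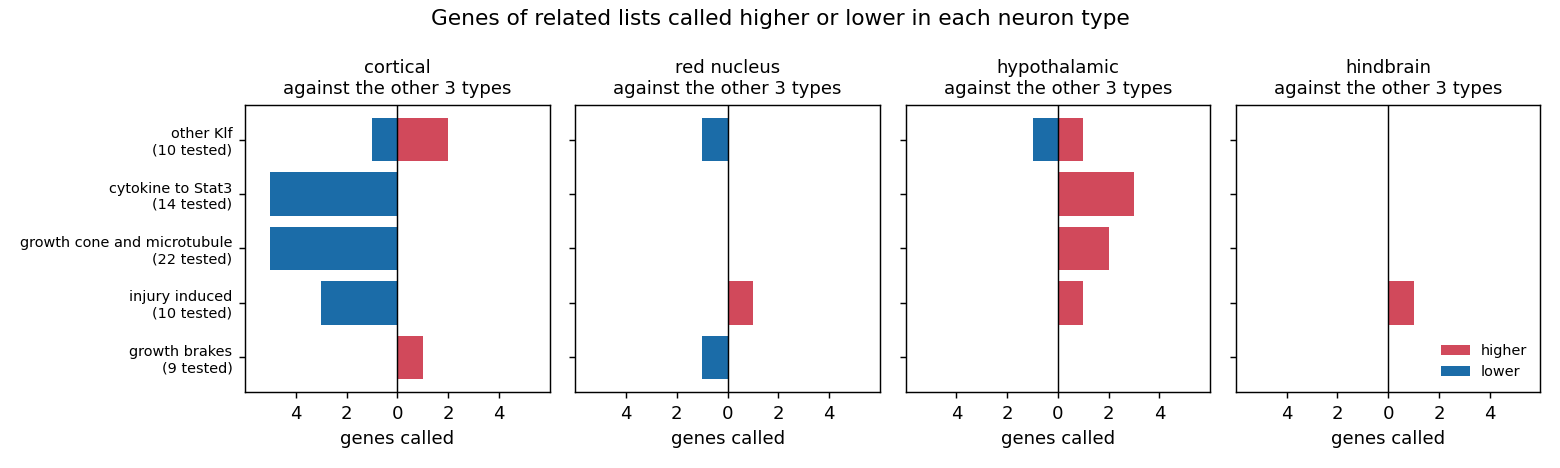
Number of genes called higher (right of 0) or lower (left of 0) in each neuron type against the other 3 types, for 5 lists of related genes with the number tested beside each list name. The growth cone and microtubule list has 5 lower and 0 higher in cortical nuclei, and 2 higher and 0 lower in hypothalamic nuclei. Of all tested genes, 13.3% were called lower and 9.22% higher in cortical nuclei, and 4.52% higher and 3.44% lower in hypothalamic nuclei.

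The hypothalamic group joins 2 gates, given here in plain CPM with no test. The 93 nuclei of the Sim1 gate and the 56 of the Ros1 and Rfx2 gate differed in peptide content, with Hcrt at 74.7 ± 39.5 and 2153 ± 358 CPM. Dclk1 was 450.4 ± 62.5 CPM in the Sim1 gate and 759.6 ± 111 in the Ros1 and Rfx2 gate, and the 2 sets of libraries did not overlap. Klf6 was 7.01 ± 3.08 and 23.0 ± 4.10 CPM on 6 and 13 UMIs, and Klf7 116 ± 31.6 and 173 ± 13.8 CPM, also without overlap. Gap43 (301 ± 56.7 and 343 ± 13.3 CPM), Basp1 (220 ± 16.1 and 191 ± 61.4 CPM) and Sox11 (41.3 ± 11.3 and 44.1 ± 10.4 CPM) overlapped. The share of all genes without overlap between the gates is not given, so nothing is read from the overlap of these genes.

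Untyped nuclei, in plain CPM, had Dclk1 at 606 ± 55.6, Gap43 at 145 ± 14.9, Stmn2 at 210 ± 20.7, Basp1 at 129 ± 27.1, Klf7 at 106 ± 10.1, Klf9 at 45.1 ± 6.60, Stat3 at 42.2 ± 9.04, Sox11 at 29.4 ± 9.92, Klf6 at 15.2 ± 2.46 and Klf4 at 2.33 ± 0.97. These nuclei passed no gate, and their cell types were not determined.

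Genes with the most similar pattern to Sox11, Dclk1 and Klf9, the 3 with the widest range, were sought among 7020 genes by Pearson r of log2 levels over the 12 sums. For Sox11 these were Ndst4 (r = 0.98), Mtus1 (0.98) and Ubash3b (0.97). For Dclk1 they were Lrrc7 (0.995), Tcf4 (0.99) and Ptk2 (0.99). For Klf9 they were Map2k5 (0.96), Iqgap1 (0.95) and Lmo7 (0.95). The 12 points share 3 libraries, and the cortical points stand apart from the rest for all 3 genes, so these values describe that split above all. Lrrc7 averaged 2133 normalised CPM in cortical nuclei and 542 to 674 in the other types, and Ndst4 16 in cortical nuclei and 156 to 333 in the others.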

How the data were processed

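The deposited files hold UMI counts per gene and barcode for 3 libraries, made by the authors with Cell Ranger (version 6.1.1 per the file headers, 7.0.1 per the submitters' processing notes) on mm10. No source used here states intron counting, strand or how barcodes were selected, and unspliced reads of nuclei can add to or miss a gene's count by its length. Depth is given with the results. Counts were summed per type and library into 12 sums and tested with edgeR 4.0.16 (quasi-likelihood, TMM scaling, its filter on low counts, library as a block, 6 residual degrees of freedom) in R 4.3.3. The library is the block because the 4 types of 1 library come from the same sample: deviations from type means had a Pearson r of 0.0662 to 0.612 within a library and -0.546 to 0.154 between libraries. P-values measure the spread across 3 libraries that is left within types after the library block, and not the differences between whole libraries. Fold changes are against the mean of the other types on the log scale, so their sign can differ from the ratio of mean levels, as for Gap43 in cortical, Klf9 in red nucleus and Sox11 in hindbrain nuclei, none of which passed the test. Doublets called by Scrublet (Scanpy 1.11.5; 0.56, 2.13 and 1.45% of nuclei in replicates 1, 2 and 3) were kept. The fit was tested on simulated counts. Gene positions are from GENCODE M21 (GRCm38), which held 32158 of the 32285 identifiers. From other lists, up to 3 called genes per type were named, by largest fold change among those at 20 CPM or more. The 10 genes and all lists were chosen with earlier results of these data known. Alternatives were other scalings, DESeq2 1.42.0, other filters, gates and thinning depths, no block, and each library left out.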

Additional observations from a re-analysis of the deposited data

Results flagged for a closer look

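Barcodes outside the limits on genes and mitochondrial UMIs entered no comparison, and they held UMIs of these genes above the 3 counts that a 0 allows. There are no control samples, the values are plain CPM over all such barcodes of a library, and their source was not tested. In replicate 2, 8325 barcodes with 5890287 UMIs gave Gap43 at 289.6 CPM, Basp1 at 283, Stmn2 at 555, Dclk1 at 594, Klf7 at 82.5, Klf9 at 99.0, Klf6 at 28.0, Stat3 at 22.2, Sox11 at 8.83 and Klf4 at 1.87. Stmn2, Klf6 and Klf9 were 1.78, 1.73 and 1.98 times as high there as in the highest class of nuclei of that library. In replicate 3, 134 barcodes with 87018 UMIs gave Gap43 at 276 CPM, Basp1 at 333, Stmn2 at 345, Dclk1 at 529, Klf7 at 149, Klf9 at 103, Klf6 at 91.9 and Stat3 at 46.0. In replicate 1, 31 barcodes with 34875 UMIs gave Gap43 at 115 CPM, Dclk1 at 344 and Klf7 at 172, from 4, 12 and 6 UMIs.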

How the results depend on the processing

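The 9 genes tested in 4 types under 16 alternatives gave 576 values, judged here by an adjusted p of 0.05 without the 2-fold limit. A call lost only by falling below 2-fold therefore counts as kept. Of these values, 539 kept their side of the threshold, 15 lost it and 19 gained it. Another 3 changed sign with a value past the threshold in at least 1 of the fits. Of 864 values between pairs of types 786 kept their side and 4 changed sign in that way. A further 60 values changed sign without passing the threshold in either fit. The 7 others changed sign on total UMIs alone: against the other 3 types, cortical Gap43 was -0.38, Basp1 -0.33 and Klf6 -0.032, cortical over red nucleus nuclei Klf7 was -0.063, over hypothalamic nuclei Klf7 was -0.28, and over hindbrain nuclei Gap43 was -0.25 and Basp1 -0.38. The median of all genes in cortical nuclei was -0.47 under that alternative. The count of genes called in hypothalamic nuclei (1) was 2 on total UMIs alone, 0 with no filter on low counts, 0 without the replicate block, 0 with gates doubled, 0 with untyped nuclei as another class of the comparison, 0 in the Sim1 gate alone (chosen after seeing the data), and 0 to 2 when 1 library was left out. In hindbrain nuclei the count (0) was 1 with that class, where Klf4 passed the filter (-1.36, adjusted p = 0.0369), and the count at an adjusted p under 0.05 (3) was 6 on total UMIs alone, 5 with that class and 1 without the replicate block. Against the other 3 types, leaving out the block took hypothalamic Sox11 and red nucleus Nr3c1 below 2-fold, took cortical Stat3, hindbrain Dclk1 (adjusted p = 0.0567) and hindbrain Klf9 past an adjusted p of 0.05, and ended no other call of the 9 genes or the named genes of the lists. Of the 80 values for shares of nuclei, 73 moved with the thinning depth. Depth limits Klf4 in every type and all genes in hypothalamic nuclei. The causes of these differences were not tested.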
